A study of Mus musculus with 10 samples.

Results

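The genes described here encode subunits of the machinery that carries proteins into mitochondria, together with proteins of the CHCH (coiled-coil-helix-coiled-coil-helix) domain. They were taken by symbol, as every entry of the deposited table that begins with Timm, Tomm or Chchd followed by a digit, which gave 31 of 23259 gene symbols. The table holds RNA-seq levels in Hb9-GFP retinal ganglion cells, whose axons form the optic nerve, from mouse retinae at postnatal day 6 (strain C57BL/6). Cells with green fluorescence from the Hb9-GFP reporter, named for Hb9 (Mnx1), were purified by flow cytometry. RNA came from about 1000 sorted cells per sample. All mice carried the reporter. The wild-type group (WT Hb9) had 5 libraries, called WT1 to WT5 here, and the knockout group (Satb1-/- Hb9), which lacks the chromatin organizer Satb1, had 5, called KO1 to KO5. The samples of a genotype came from different litters. The labels do not say in which cells or at which age Satb1 is lost, nor whether a sample pools several animals.

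Most mitochondrial proteins are encoded in the nucleus, made in the cytosol and threaded through the TOM complex of the outer membrane. Proteins with a presequence then pass the TIM23 complex of the inner membrane, and metabolite carriers are escorted by small TIM chaperones to the TIM22 complex. Small proteins with paired cysteines, the CHCH proteins among them, are trapped in the intermembrane space when Chchd4 (Mia40) oxidizes their cysteines. Ganglion cells send long axons to the brain and depend on mitochondria for the energy of firing and transport.

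Levels are in TPM, transcript abundance scaled for transcript length and to a total of 1000000 per library, so that genes can be compared within a library. Sequencing depth cannot be read from TPM and is unknown here, and no counting interval was computed. Between 10073 and 12556 genes per library reached 1 TPM. Satb1 itself was at 304, 189, 414, 132 and 38.6 TPM in WT1 to WT5 and at 170.4, 126, 83.1, 34.9 and 24.1 TPM in KO1 to KO5, so its groups overlapped. The labels do not say which exons are deleted, so reads outside the deleted stretch check nothing. Ganglion cell markers were found in every library: Rbpms at 374 to 2978 TPM, Pou4f2 at 45.2 to 839 TPM and Slc17a6 at 55.2 to 726 TPM. The libraries WT5, KO4 and KO5 stood apart on the first principal component, with cytosolic ribosomal protein genes taking 11.5% to 13.0% of the TPM in these 3 and 3.76% to 7.92% elsewhere. On the second component WT4 stood apart, at -145 against 6.88 to 43.5 in the others. The 6 markers of direction-selective ganglion cells summed to 534 to 1107 TPM in WT against 116 to 308 TPM in KO, without overlap. Of the 6, only Cartpt was also without overlap by itself, at 56.8 to 843 TPM in WT and 1.63 to 47.3 TPM in KO. It made up the largest part in 4 of the 5 wild-type libraries. Mmp17, Col25a1, Cdh6, Fstl4 and Mnx1 each overlapped between the genotypes. Cdh6, for example, was at 75.2 to 309 TPM in WT and 38.7 to 179 TPM in KO. Mnx1 was listed at 0 in 2 libraries. The part of the lower marker sum in the genotype values below was not tested. Summed over 10 markers each, rod genes came to 3.89 to 467 TPM in WT against 1.21 to 469 TPM in KO, and microglia genes to 4.14 to 2278 TPM and 74.2 to 2992 TPM. The 8 Muller glia markers summed to 399 to 649 TPM and 209 to 7881 TPM, highest in KO5, the 8 amacrine markers to 84.1 to 358 TPM and 88.9 to 262 TPM, and the 7 endothelial markers to at most 17.7 TPM in any library. In bulk samples such as these, fewer cells of a type and less RNA per cell cannot be told apart.

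The 31 genes divide into 10 of the TOM complex and its paralogues, 5 of the TIM23 complex and its motor, 7 of the TIM22 complex and the small TIM chaperones, and 9 CHCH genes. Together they took 0.149% to 0.48% of the TPM of a library. Their summed level was 2032, 2398, 2330.2, 1590.4 and 4801 TPM in WT1 to WT5, and 1489, 2355, 1919.9, 3763 and 2476 TPM in KO1 to KO5. The highest sums were in WT5 and KO4, and the groups overlapped. The CHCH sum varied most between libraries. It was 3666, 2181 and 1874 TPM in WT5, KO4 and KO5 and 623 to 849.9 TPM in the other 7. Most of the sum in WT5, KO4 and KO5 came from 1 gene, Chchd2, at 3124, 1734 and 1594 TPM there. The TOM genes were lowest in WT5 and KO5, with 276, 368 and 235 TPM in those 3 libraries and 341 to 704 TPM in the other 7.

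**Figure D1:**
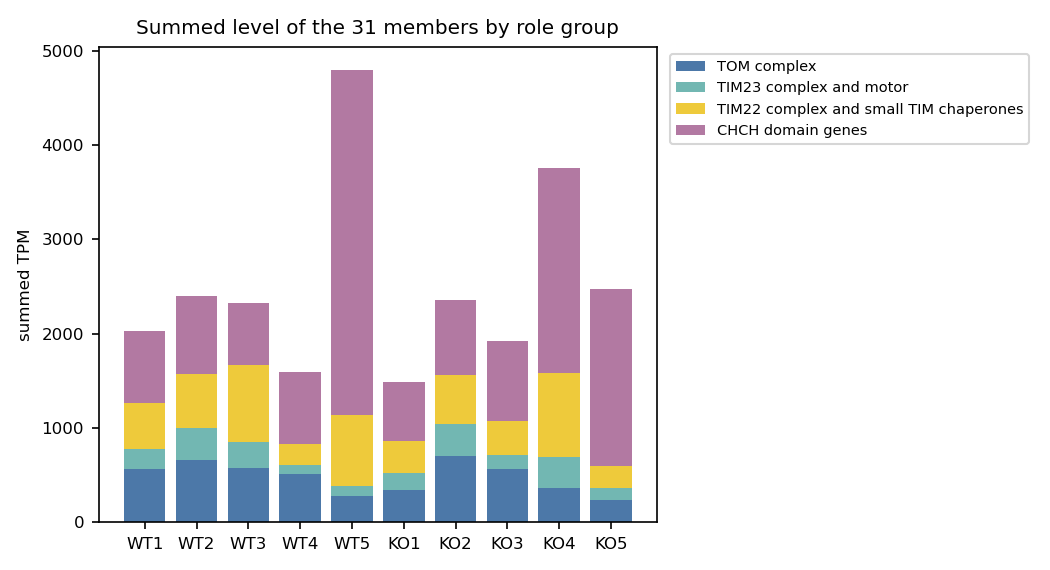
Summed TPM (vertical axis) of the 31 genes in each of the 10 libraries, WT1 to WT5 wild-type and KO1 to KO5 knockout, with 1 colour per role group. The CHCH segment is tallest in WT5 (3666 TPM), KO4 (2181 TPM) and KO5 (1874 TPM), where Chchd2 alone is at 3124, 1734 and 1594 TPM.

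The levels of 2 members were almost all 0. Tomm20l, a paralogue of the receptor Tomm20, was listed at 0 in 8 libraries and at 1.44 and 0.636 TPM in WT1 and WT5. Timm8a2, a second Timm8a gene, was listed at 0 in 9 libraries and at 2.92 TPM in WT4. The other 29 reached 1 TPM in at least 5 libraries and entered the genotype comparison over all genes. Each gene's median over the 10 libraries was taken, and the median of these values was 34.3 TPM for the 29, against 14.2 TPM for all 11745 genes tested. Of the 29, 5 were listed at 0 in at least 1 library (Timm50, Chchd1, Chchd5, Chchd7 and Chchd8), as were 12.1% of all tested genes. A value of 0 can be a failed estimate in a table of this kind, so the values of each library are given for those genes, with no mean; the fitted log2 differences include the zeros.

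The symbols are those of the deposited table, and 3 import genes escape the rule because they stand there under older names. Timm10b, a small TIM of the carrier route, is listed as Fxc1 at 0 to 42.2 TPM. Timm21, of the presequence translocase, is listed as 1700034H14Rik at 0 to 38.3 TPM, and Timm29, of the TIM22 complex, as 1810026J23Rik at 11.6 to 98.4 TPM.

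**Figure D2:**
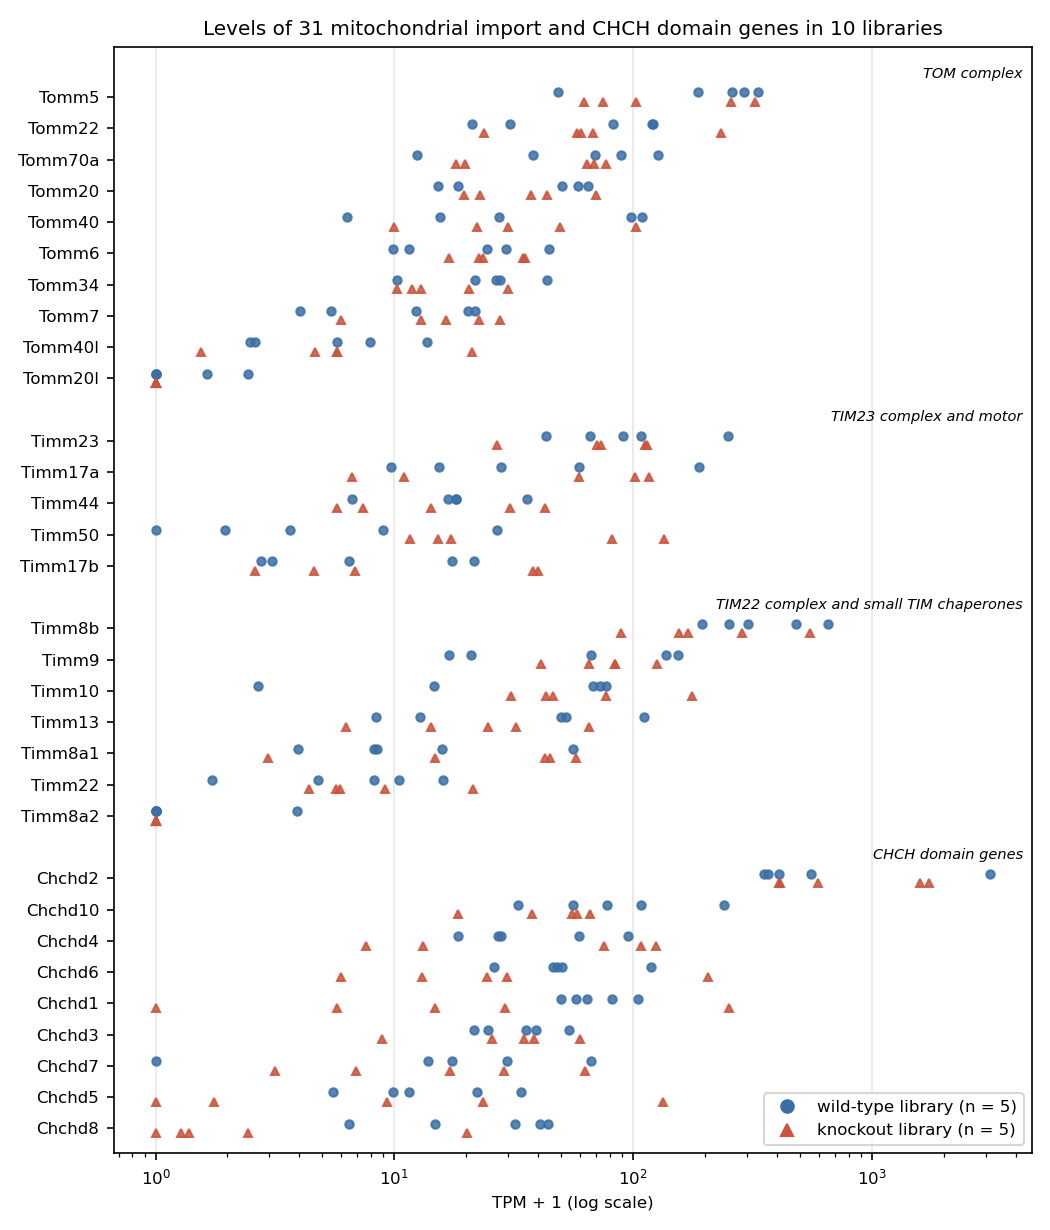
TPM + 1 on a log axis for each of the 31 genes, grouped by role, with a circle per wild-type library and a triangle per knockout library. Chchd2 has the highest level, 351 to 3124 TPM, while Tomm20l and Timm8a2 sit at or near 0, and circles and triangles overlap in every row.

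The stretch just before the start of these genes was read from RefSeq (build GRCm38.p6), to see which letters the members share beyond their names. Windows from 250 bases before to 50 bases after the start were found for 27 of the 31 genes, 29 windows in all; Chchd2, Chchd7, Tomm7 and Tomm40l had none. Both strands were searched for 4 known motifs, and no match overlapped a match of another motif. The core CCGGAAG, bound by ETS factors such as GABPA (NRF-2), a known regulator of nuclear-encoded mitochondrial genes, stood in 11 of the 29 windows (37.9%), from 10 genes, since the 2 windows of Tomm34 share 1 of its sites. It stood in 17.3% of the windows of all tested genes and in 8.86% of all 32851 windows. The motif of ZNF143 stood in 4 windows (13.8%), 2 of which share 1 site in Timm22, against 2.24% and 0.95%. Its other carriers were Chchd3 and Chchd6, which encode the 2 CHCH subunits of the cristae junction complex (MICOS). The motif of NRF1, another regulator of mitochondrial genes, stood in 3 windows (10.3%, against 10.1% and 4.60%), and the motif of YY1 in 1, that of Timm50 (3.45%, against 1.52% and 0.633%). These are descriptions of letters in a short window and show no binding.

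Stretches of 60 bases before the start are shown for the 3 carriers of the ZNF143 motif, for an ETS core in Chchd8 and Tomm22, and for the NRF1 motif in Chchd4 and Tomm20, each 5′ to 3′ on the gene's strand with the letters of the named motif in capitals. They lie, in the same order, at chr6:33060383-33060442 (minus strand), chr6:89595670-89595729 (minus), chr11:76406865-76406924 (plus), chr7:100536976-100537035 (plus), chr15:79670797-79670856 (plus), chr6:91473585-91473644 (minus) and chr8:126945922-126945981 (minus). The capitals begin 158, 53, 12, 97, 44, 196 and 20 bases before the start; in Tomm22, where the core lies on both strands in overlap, the run of capitals begins 47 bases before it. Chchd3 has a second ZNF143 match further upstream and an ETS core in the lower-case letters of its stretch.
Chchd3: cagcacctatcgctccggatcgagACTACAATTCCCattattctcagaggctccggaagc
Chchd6: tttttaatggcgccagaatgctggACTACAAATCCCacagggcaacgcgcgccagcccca
Timm22: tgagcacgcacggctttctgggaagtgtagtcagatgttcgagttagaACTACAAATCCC
Chchd8: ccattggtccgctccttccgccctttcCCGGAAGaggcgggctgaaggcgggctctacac
Tomm22: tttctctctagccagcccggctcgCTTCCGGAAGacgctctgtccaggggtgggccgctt
Chchd4: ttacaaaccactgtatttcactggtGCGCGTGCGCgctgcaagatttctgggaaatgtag
Tomm20: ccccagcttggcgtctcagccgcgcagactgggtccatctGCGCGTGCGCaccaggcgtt

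The question asked of the genotypes was which transcripts differ when Satb1 is missing. These genes were proposed for description with that comparison already known, because Timm50 and Chchd8 had been named among its results, so their genotype values are given as a description and nothing is drawn from their number. Across all 11745 genes, limma called 0 at a Benjamini-Hochberg adjusted p under 0.05 (0.0%) and 389 at an unadjusted p under 0.05 (3.31%). Of the 29 members, 0 passed after adjustment and 3 were under 0.05 before it: Timm50, higher in knockout (0.741% of all genes were under 0.05 and higher), and Chchd8 and Chchd1, lower (2.57%). Of the 389 genes, 87 were higher and 302 lower in knockout. In the fit after median centring 383 genes were under 0.05 before adjustment, 234 of them higher and 149 lower. No member had all 5 knockout libraries above, or all 5 below, all wild-type libraries, which was so for 0.0766% and 0.426% of all genes. The mean of log2(TPM + 1) was higher in knockout for 15 members and lower for 14, with a median log2 difference of 0.03. Of all genes, 32.6% were higher and 67.4% lower by this measure, and the median was -0.31. After median centring of the libraries, which moved that median to 0.07, 19 members were higher and 10 lower, with a median of 0.40. The standard error of a member's difference was 0.58 to 1.08, and every member's 95% interval reached more than 1 log2 unit (2-fold) to either side of its estimate.

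**Figure D3:**
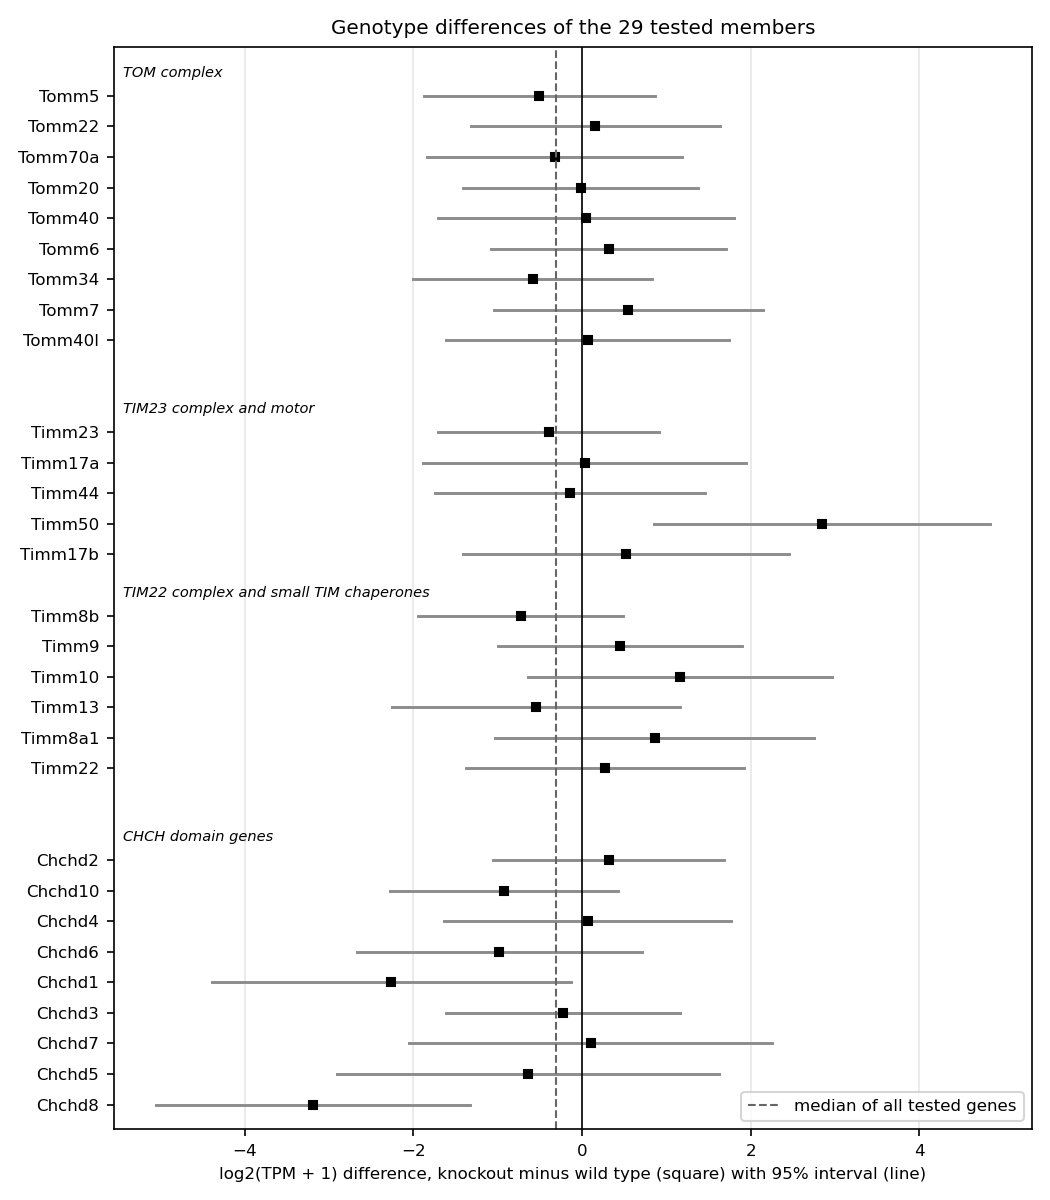
Difference in log2(TPM + 1), knockout minus wild-type, for the 29 tested members (squares), with 95% intervals (lines) from the fit over all genes; the dashed line is the median of all tested genes (-0.31). Timm50 lies to the right of 0, Chchd8 and Chchd1 lie to the left, and every other interval includes 0.

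At the outer membrane, Tomm40 forms the channel, Tomm20, Tomm22 and Tomm70a act as receptors, and Tomm5, Tomm6 and Tomm7 are small subunits that hold the complex together. Tomm5 (chromosome 4, 45105208 to 45108114, minus strand, mm10) had the highest level of the group. It was at 187, 331, 259, 291 and 47.6 TPM in WT1 to WT5 and at 61.2, 256, 323, 102 and 73.7 TPM in KO1 to KO5. WT5 was the lowest of all 10, and the groups overlapped (223 ± 111 and 163 ± 119 TPM, SD, n = 5 each; log2 difference -0.51, SE 0.66).

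The channel gene Tomm40 (chromosome 7, 19701313 to 19715438, minus strand) was at 14.5, 26.5, 5.35, 108 and 96.8 TPM in WT and at 9.0, 29, 21.3, 102 and 48.4 TPM in KO. It was highest in WT4 and WT5 and KO4 and KO5, whatever the genotype, and its means differed by far less than the spread (50.2 ± 48.3 and 41.9 ± 36.4 TPM, SD, n = 5 each). The receptor gene Tomm20 (chromosome 8, 126930667 to 126945844, minus strand) was low in the same 4 libraries. It was at 63.5, 57.8, 49.3, 14.3 and 17.5 TPM in WT and at 68.8, 42.5, 36.3, 21.8 and 18.5 TPM in KO. Both genotypes thus held 3 libraries at 36.3 TPM or more and 2 at 21.8 TPM or less, with a log2 difference of -0.02 (SE 0.67) that turned positive under median centring and quantile normalization.

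Tomm34, a cytosolic cochaperone named after the complex, had the largest difference towards wild-type of the group and Tomm7 the largest towards knockout. Tomm34 was at 26.8, 20.8, 42.6, 9.28 and 25.6 TPM in WT and at 28.8, 19.5, 9.25, 11.9 and 10.8 TPM in KO (log2 difference -0.58, SE 0.68). Tomm7 was at 20.8, 11.3, 4.43, 3.02 and 19.3 TPM in WT and at 26.6, 15.5, 4.99, 11.9 and 21.6 TPM in KO (0.55, SE 0.76). In both genes the genotypes overlapped over most of their range. Tomm22 ranged from 20.1 to 231 TPM and Tomm70a from 11.5 to 126 TPM. Tomm6 was the most even member tested, at 8.90 to 43.3 TPM, with an SD over the 10 libraries of 0.70 on the log2 scale, against a median of 1.14 for the members and 1.20 for all tested genes. Its value is uncertain, because 76.0% of its exonic bases are shared on the same strand with the annotated gene Gm21981.

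In the presequence translocase of the inner membrane, Timm23 and Timm17a or Timm17b form the translocase core, Timm50 receives presequences from the outer membrane, and Timm44 anchors the motor that pulls the chain into the matrix. Timm50 (chromosome 7, 28305516 to 28312072, minus strand; no exonic overlap with another annotated gene) had the largest difference towards knockout of all members. It was at 25.9, 7.98, 2.66, 0 and 0.954 TPM in WT1 to WT5 and at 16.2, 80.6, 10.6, 133 and 14.2 TPM in KO1 to KO5. All knockout libraries were above WT2 to WT5, and WT1 was above 3 knockout libraries. The log2 difference was 2.85 (SE 0.96, 95% interval 0.85 to 4.84). It was 2.31 to 3.50 with each library left out in turn and 2.22 without the 3 libraries apart. In the fit without those 3, the unadjusted limma p of Timm50 was not under 0.05.

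**Figure D4:**
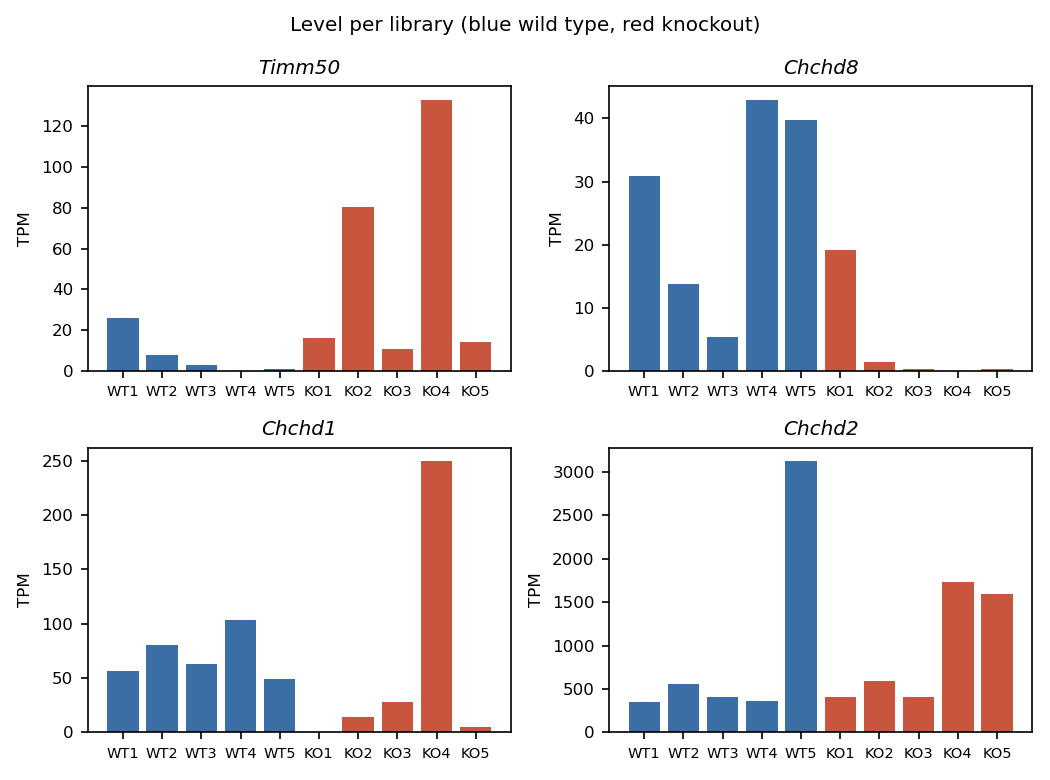
TPM (vertical axis, from 0) of Timm50, Chchd8, Chchd1 and Chchd2 in each library, blue bars wild-type and red bars knockout. Timm50 is highest in KO4 (133 TPM) and KO2 (80.6 TPM), Chchd8 is at 1.43 TPM or less in KO2 to KO5, Chchd1 is at 249.7 TPM in KO4, and Chchd2 is highest in WT5, KO4 and KO5.

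For each of the other 4 TIM23 genes the 95% interval of the difference included 0. Timm23 (chromosome 14, 32180162 to 32201898, minus strand), the channel subunit with the highest level of the group, was at 89.8, 107, 249, 42.0 and 64.7 TPM in WT and at 114, 111, 72.1, 69.2 and 25.8 TPM in KO (log2 difference -0.39, SE 0.63). Timm44 ranged from 5.63 to 34.8 TPM in WT and from 4.74 to 41.8 TPM in KO (-0.14, SE 0.77, positive under median centring and quantile normalization). Within a library the 2 genes went both ways. Timm50 was above Timm44 in KO1, KO2 and KO4, where it was at 133 TPM and Timm44 at 6.41 TPM in KO4. It was below Timm44 in KO3 (10.6 against 13.2 TPM) and KO5 (14.2 against 29.6 TPM).

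The paralogues Timm17a (chromosome 1) and Timm17b (chromosome X) encode alternative core subunits. Timm17a was at 58.0, 187, 14.4, 8.65 and 26.9 TPM in WT and at 5.66, 101, 9.97, 115 and 58.0 TPM in KO. Timm17b was at 16.4, 20.6, 5.46, 1.77 and 2.07 TPM in WT and at 39.0, 5.85, 37.2, 3.60 and 1.61 TPM in KO. Timm17a was the higher in all wild-type libraries, while KO1 and KO3 had more Timm17b. Within a library, the log2 ratio of Timm17a to Timm17b was 1.98 ± 2.49 (SD, n = 10), and it was above 0 in 8 of 10 libraries (two-sided exact sign-flip permutation p = 0.0371; 0.0594 after Benjamini-Hochberg adjustment over 8 pairs). The adjusted sign-flip p was 0.025 without KO1 and 0.0312 without KO3, the 2 libraries with more Timm17b. It was 0.0813 to 0.119 with any other single library left out. Without WT5, KO4 and KO5 the mean log2 ratio was 1.06 (adjusted p = 0.375).

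The small TIMs work in the intermembrane space as mixed rings of Timm9 with Timm10 and of Timm8 with Timm13, and shield hydrophobic proteins on their way to the TIM22 complex. Timm8b (chromosome 9, 50603910 to 50605320, plus strand) led the group and was the second highest of all members by mean level. It was at 251, 302, 651, 193 and 479 TPM in WT and at 155, 285, 169, 549 and 88.1 TPM in KO. In KO1, KO3 and KO5 it was below its whole wild-type range, and in KO2 and KO4 within it (375 ± 188 and 249 ± 182 TPM, SD, n = 5 each; log2 difference -0.73, SE 0.58). Of its exonic bases 15.6% lie opposite Nkapd1, and without stated strand use such reads cannot be assigned.

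Timm8a1 (chromosome X, 134537256 to 134541865, minus strand), whose human counterpart is mutated in deafness-dystonia-optic neuronopathy syndrome, had far lower levels than Timm8b. It was at 14.8, 7.50, 55.1, 2.96 and 7.24 TPM in WT and at 43.9, 56.5, 41.8, 13.8 and 1.96 TPM in KO (log2 difference 0.86, SE 0.91). The log2 ratio of Timm8b to Timm8a1 was 4.04 ± 1.55 (SD, n = 10), a mean of 16.5-fold on TPM + 1, and Timm8b was higher in 10 of 10 libraries (two-sided exact sign-flip p = 0.00195, the smallest the design allows; adjusted p = 0.00391). The ratio was 4.83 ± 1.02 in wild-type and 3.25 ± 1.67 in knockout (SD, n = 5 each).

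Timm9 (chromosome 12) was at 152, 136, 19.9, 16.0 and 65.8 TPM in WT and at 83.1, 124, 82.8, 64.1 and 40.1 TPM in KO. Timm10 (chromosome 2) was at 13.7, 67.1, 76.0, 1.68 and 71.3 TPM in WT and at 45.3, 42.0, 29.9, 175 and 76.0 TPM in KO, the largest difference towards knockout of the group (log2 difference 1.16, SE 0.86). That value rested in part on WT4, without which it was 0.32, below the 0.46 of Timm8a1. The ratio of the 2 ring partners varied widely. Timm9 exceeded Timm10 in 6 of 10 libraries, and the log2 ratio ran from -1.88 in WT3 to 3.38 in WT1 (mean 0.66 ± 1.73, SD, n = 10; exact sign-flip p = 0.266, adjusted p = 0.354).

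Timm13 was at 51.1, 48.7, 11.8, 7.35 and 109.7 TPM in WT and at 13.2, 5.26, 31.2, 64.4 and 23.7 TPM in KO. Against Timm8a1, its partner, the log2 ratio was 0.69 ± 2.39 (SD, n = 10; exact sign-flip p = 0.371, adjusted p = 0.424), with Timm13 higher in 6 of 10 libraries. Timm22, the channel of the carrier translocase, was the lowest tested gene of the group, at 0.730 to 14.9 TPM in WT against 3.39 to 20.4 TPM in KO. Timm9 and Tomm20l end against each other on opposite strands of chromosome 12 and share 49 exonic bases, 6.81% of those of Tomm20l.

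**Figure D5:**
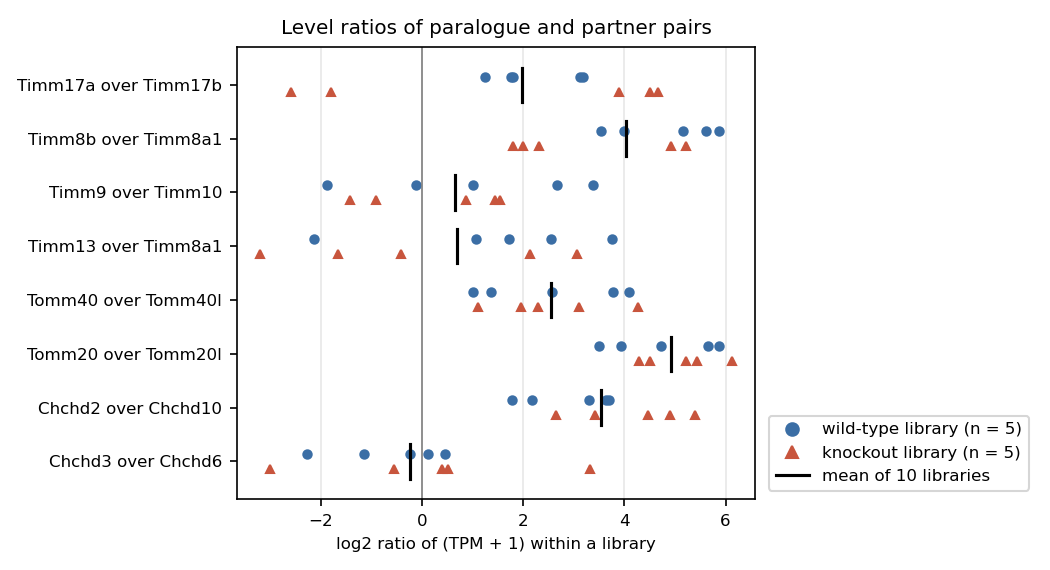
Log2 ratio of (TPM + 1) of the 2 genes of each of 8 pairs within a library, with circles for wild-type libraries, triangles for knockout libraries and a bar at the mean of all 10. Timm8b over Timm8a1, Tomm40 over Tomm40l, Tomm20 over Tomm20l and Chchd2 over Chchd10 lie above 0 in all 10 libraries, and the other 4 pairs have libraries on both sides of 0.

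Among the paralogues of the outer membrane, Tomm40l, a second form of the channel, was at 1.62, 12.6, 1.49, 6.93 and 4.73 TPM in WT and at 3.63, 0.557, 4.76, 20.1 and 4.74 TPM in KO. Tomm40 was higher in 10 of 10 libraries, with a log2 ratio of 2.55 ± 1.22 (SD, n = 10; exact sign-flip p = 0.00195, adjusted p = 0.00391). Since 64.3% of the exonic bases of Tomm40l lie opposite the receptor gene Nr1i3, reads of the 2 genes cannot be told apart where strand use is not stated. Tomm20 was above Tomm20l in 10 of 10 libraries, but Tomm20l was listed at 0 in 8 of them, so a test could have had no other outcome and none is given; the log2 ratio of 4.93 ± 0.87 (SD, n = 10) rests on the added 1 TPM. The pair remains among the 8 over which p values were adjusted. Because its p was fixed at the smallest possible value, this made the adjusted p of most other pairs somewhat smaller than without it.

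CHCH proteins hold paired cysteines in helical hairpins, and their members do different work: Chchd4 oxidizes incoming proteins, Chchd3 and Chchd6 belong to MICOS, Chchd1 is a subunit of the mitochondrial ribosome, Chchd8 (now named Coa4) serves cytochrome oxidase assembly, and Chchd2 and Chchd10 are paralogues linked in humans to neurodegeneration. Chchd8 (chromosome 7, 100537071 to 100540369, plus strand; no exonic overlap with another annotated gene) had the largest difference towards wild-type of all members. It was at 30.8, 13.8, 5.45, 43.0 and 39.8 TPM in WT1 to WT5 and at 19.1, 1.43, 0.376, 0 and 0.274 TPM in KO1 to KO5. KO2 to KO5 were below the whole wild-type range, and KO1 was above WT2 and WT3. The log2 difference was -3.19 (SE 0.89, 95% interval -5.06 to -1.33). It was -3.95 to -2.87 with each library left out in turn and -2.23 without the 3 libraries apart. In the fit without those 3, the unadjusted limma p of Chchd8 was not under 0.05.

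Chchd1 (chromosome 14, 20703006 to 20704425, plus strand), described because its unadjusted p was under 0.05 and thus chosen after its values were seen, was at 56.8, 80.7, 62.9, 104 and 49.1 TPM in WT. In knockout it was at 0, 13.9, 28.0, 249.7 and 4.73 TPM. The wild-type libraries lay close together, while all knockout libraries but KO4 were below that range and KO4 was above it. The log2 difference was -2.26 (SE 1.02, 95% interval -4.39 to -0.14), and it was -1.30 without KO1, the library listed at 0, and -3.30 without KO4. Its unadjusted p was no longer under 0.05 after median centring or quantile normalization (differences of -1.89 and -1.92), with no filter, and in 7 of the 10 fits that left out 1 library (WT1, WT2, WT3, WT4, KO1, KO2 or KO5).

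Chchd2 (chromosome 5, 129881156 to 129887470, minus strand) had the highest level of all members in 9 of 10 libraries; in WT3 Timm8b was higher. It was at 351, 555, 408, 366 and 3124 TPM in WT and at 406, 591, 409.9, 1734 and 1594 TPM in KO. WT5, KO4 and KO5 were at 1594 TPM or more and the other 7 at 591 TPM or less, so both genotypes held high and low libraries (961 ± 1212 and 947 ± 661 TPM, SD, n = 5 each; log2 difference 0.32, SE 0.66). Those are the 3 libraries with the largest ribosomal protein share, and of the 12 ganglion cell markers 5 were lowest in them (Pou4f1, Pou4f2, Slc17a6, Isl1 and Elavl4) and 3 highest (Thy1, Tubb3 and Gap43). Slc17a6 was at 67.8, 96.7 and 55.2 TPM there and at 176 to 726 TPM elsewhere, and Elavl4 at 15.9, 23.7 and 17.6 TPM and at 84.9 to 332 TPM. The part of these shifts in the Chchd2 level was not tested; without the 3 libraries the log2 difference was 0.16. RefSeq lists a processed copy, Chchd2-ps, with which reads may be shared.

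Chchd10 (chromosome 10, 75933130 to 75937747, plus strand), the paralogue of Chchd2, had another pattern. It was at 76.6, 55.2, 31.8, 107 and 239 TPM in WT and at 17.5, 54.5, 64.7, 57.2 and 36.9 TPM in KO (102 ± 81.4 and 46.2 ± 19.0 TPM, SD, n = 5 each; log2 difference -0.93, SE 0.65). Both genes were highest in WT5, but in KO4 and KO5 Chchd10 was within its range in the other libraries. Chchd2 exceeded Chchd10 in 10 of 10 libraries by a log2 ratio of 3.54 ± 1.16 (SD, n = 10), a mean of 11.6-fold on TPM + 1 (exact sign-flip p = 0.00195, adjusted p = 0.00391). The ratio was 2.92 ± 0.89 in wild-type and 4.16 ± 1.12 in knockout (SD, n = 5 each).

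The MICOS genes Chchd3 and Chchd6, which share the ZNF143 motif shown above, had a ratio that went both ways. Chchd3 was at 38.2, 20.6, 34.7, 53.0 and 23.8 TPM in WT and at 37.6, 7.9, 58.6, 33.9 and 24.5 TPM in KO (log2 difference -0.23, SE 0.66, positive under median centring and quantile normalization). Chchd6 was at 45.2, 46.7, 25.2, 49.1 and 118 TPM in WT and at 28.5, 12, 5.0, 23.4 and 205 TPM in KO (-0.98, SE 0.81). In KO3 the 2 genes were far apart, at 58.6 and 5.0 TPM, and in KO5 they were apart the other way, at 24.5 and 205 TPM. Their log2 ratio was -0.24 ± 1.73 (SD, n = 10; exact sign-flip p = 0.693, adjusted p = 0.693), with Chchd3 higher in 5 of 10 libraries.

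Of the remaining CHCH genes, Chchd4 ranged from 17.5 to 93.9 TPM in WT and from 6.59 to 123 TPM in KO, lowest in KO4 and KO5. Chchd5 was at 4.56, 10.5, 21.2, 8.88 and 32.8 TPM in WT and at 0.757, 22.6, 132, 8.35 and 0 TPM in KO. Chchd7 was at 65.5, 28.5, 16.4, 0 and 12.9 TPM in WT and at 5.88, 16.1, 27.7, 62.0 and 2.16 TPM in KO. In all 3 the genotypes overlapped, and the log2 differences were 0.07 (SE 0.82), -0.64 (SE 1.08) and 0.10 (SE 1.03). That of Chchd5 was 0.14 without KO5, the library listed at 0, and 0.70 without the 3 libraries apart.

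Each role group held members on both sides of 0. The TOM genes had 5 members higher and 4 lower in knockout, with a median log2 difference of 0.05. The TIM23 genes had 3 higher and 2 lower (median 0.03), the TIM22 and small TIM genes 4 higher and 2 lower (0.36) and the CHCH genes 3 higher and 6 lower (-0.64). Of all tested genes 67.4% were lower in knockout, with a median of -0.31 (0.07 after median centring). The standard error of a single member had a median of 0.79, which is not the error of a group's median. The 4 group medians depended on the scaling and on single libraries. After median centring the CHCH median was -0.26 and that of the TIM22 and small TIM genes 0.73, with the order of the 4 unchanged. Leaving out single libraries did change the order: without WT2 the TIM23 median (0.65) was above that of the TIM22 and small TIM genes (0.59). With single libraries left out, the CHCH median ran from -0.95 to -0.19 (without WT1 and KO5), the TIM22 and small TIM median from -0.05 (without WT3) to 0.59, the TIM23 median from -0.36 (without KO2) to 0.65 (without WT2) and the TOM median from -0.22 (without WT4) to 0.13. The counts by direction are no firmer, since median centring turned Tomm20, Tomm70a, Timm44 and Chchd3 from lower to higher and leaving out 1 library turned 2 to 7 members, most without KO4. Without WT5, KO4 and KO5 the sign changed for Chchd5, Timm17a, Tomm20, Tomm40 and Tomm40l.

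Import genes outside the symbol rule were taken from a list of presequence proteases, motor chaperones, sorting factors and the oxidase Gfer, 24 of whose 26 symbols were in the table. Of 23 tested, 6 were higher and 17 lower in knockout (median log2 difference -0.16), where 67.4% of all genes were lower, and limma called 0 at a Benjamini-Hochberg adjusted p under 0.05 and 0 at an unadjusted p under 0.05. The 3 with the smallest p were Dnlz, which keeps the motor chaperone Hspa9 soluble (44.7 ± 55.8 TPM in WT against 8.66 ± 7.15 TPM in KO), the insertase gene Oxa1l (65.9 ± 41.1 and 31.6 ± 9.40 TPM) and the chaperonin gene Hspe1 (309 ± 112 and 204 ± 159.5 TPM; SD, n = 5 each). Their log2 differences were -1.62 (SE 0.92), -0.89 (SE 0.61) and -0.78 (SE 0.57), and the groups overlapped in each.

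Genes of other twin-cysteine proteins and of cytochrome oxidase assembly had 11 of 14 symbols in the table, all tested, with 7 higher and 4 lower (median 0.32) and 0 called by limma before or after adjustment. The complex I subunit gene Ndufs5 was at 34.4 to 202 TPM in WT against 10.2 to 122 TPM in KO (log2 difference -1.43, SE 0.72), and the copper chaperone gene Cox19 at 1.04 to 126 and 2.50 to 13.5 TPM (-1.32, SE 0.98). Triap1 was at 0 to 18.4 and 0 to 9.71 TPM (-1.34, SE 0.86). Of the MICOS list, 6 of 8 symbols were in the table and tested, with 3 higher and 3 lower (median -0.03) and 0 called before or after adjustment. The core subunit gene Immt stood at 95.7 ± 61.2 TPM in WT against 57.0 ± 33.1 TPM in KO (-0.70, SE 0.65), 2410015M20Rik at 32.2 ± 37.1 and 79.6 ± 49.8 TPM (1.76, SE 1.0) and Dnajc11 at 14.6 ± 8.94 and 11 ± 9.63 TPM (-0.49, SE 0.78; SD, n = 5 each).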

How the data were processed

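The authors deposited 1 table of log10(TPM + 1) values, 23746 entries in 10 libraries; the base and offset were read from the values, since back-transformed columns each sum to 1000000. Per the submitters' processing notes, TopHat2 2.0.10, Cufflinks and the build mm10 were used. How reads were counted, with which annotation, filters and strand setting, is not given in the sources used here. The labels' protocols state that cDNA was amplified from the sorted cells' RNA, which can add variation between libraries.

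Five-digit entries (25, at 0.0438% to 0.198% of the TPM) were left out and 240 repeated symbols summed. Genes with at least 1 TPM in 5 libraries (11745) were tested on log2(TPM + 1) with limma 3.58.1 in R 4.3.3 (genotype as the only term, mean-variance trend, Benjamini-Hochberg adjustment), a fit tested on simulated data. Within-library ratios of 8 pairs were tested by two-sided exact sign-flip permutation; the test of Tomm20 against Tomm20l is void and not reported. The p-values measure the spread between libraries, in which differences between litters and those from cDNA amplification cannot be told apart. Coordinates and exon overlaps are from GENCODE M21 (GRCm38, the same assembly as mm10). The members, lists and pairs were chosen with earlier results of these data known. Values in every library are given for Timm50 and Chchd8, for each role group's highest member and largest difference in each direction, and for genes of the pairs; of lists outside the rule, the 3 smallest p are named. Alternatives covered the pseudocount, the filter, scaling, a replicate block and each library left out; fits without 3 libraries were added after seeing the data.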

Additional observations from a re-analysis of the deposited data

Results flagged for a closer look

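One of 58 sets of 5 libraries (29 members in 2 genotypes) held a library far from the others on the log2 scale, where chance gives about 1 in 20. It was Chchd2 in WT5, at 3124 TPM against 351 to 555 TPM in the other 4 wild-type libraries. In the knockout, Chchd2 was at 1734 and 1594 TPM in KO4 and KO5 and at 406 to 591 TPM in the other 3. Cytosolic ribosomal protein genes held 11.5%, 12.9% and 13.0% of the TPM in WT5, KO4 and KO5 and at most 7.92% elsewhere, and their part in the Chchd2 level was not tested.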

How the results depend on the processing

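The count of genes at a limma adjusted p under 0.05 was 0 and became 1 with a filter of 5 TPM (Rpp25), and was 0 to 1 with single libraries left out (1 without WT3, WT4 or WT5); no member was called in any fit. Before adjustment, 389 genes were under 0.05, 829 with a replicate block and 286 to 845 with single libraries left out, highest without WT5. The labels do not say whether libraries with the same replicate number belong together. Deviations of same-numbered libraries correlated at -0.032 to 0.364, and those of differently numbered ones at -0.403 to 0.491. The same-numbered wild-type library was the best match of KO1, KO3 and KO5, but not of KO2 or KO4, so a pairing is neither shown nor excluded. The 3 members under 0.05 were the same with the block, and Chchd1 was not among them in 10 of the other fits named in the report. Without the 3 libraries apart they were Chchd6, Chchd1 and Timm8a1, with log2 differences of -1.64, -3.31 and 1.87, where Timm50 and Chchd8 were at 2.22 and -2.23. The members' median difference ran from -0.30 to 0.05 with single libraries left out and was 0.40 after median centring and 0.20 after quantile normalization. The medians of the lists outside the rule ran from -0.45 to -0.11 (import), -0.23 to 0.54 (twin-cysteine) and -0.30 to 0.19 (MICOS). Averaging same-numbered libraries (replicate block) left 5 values per pair and by construction an adjusted sign-flip p of 0.125 for the 3 pairs that passed. Their log2 ratios were unchanged, at 4.04 (Timm8b over Timm8a1), 2.55 (Tomm40 over Tomm40l) and 3.54 (Chchd2 over Chchd10). The ratio of Tomm20 over Tomm20l, for which no test is given, was unchanged at 4.93. The ratio of Timm17a to Timm17b was 1.68 to 2.49 with single libraries left out and passed only without KO1 or KO3. Unknown depth limits every low value.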
